A study of Rattus with 4 samples.

Results

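The genes described here are 8 genes of DNA replication and mitosis: Mcm2, Mcm3, Mcm4, Mcm5, Mcm6, Mcm7, Top2a and Bub1b. They were chosen by name, after earlier results of these data had shown peaks in cell cycle genes, so the presence of peaks in them and the tags and recurrence of those peaks are given as a description with no test. A peak belongs to a gene when the deposited annotation assigns it to that gene name. By this rule the 8 genes held 33 of 10804 peaks, 7 of 2696 in IP replicate 1 and 26 of 8108 in IP replicate 2. They carried a peak in 7 cases, of 1914 genes that had a peak in the lists; Mcm5 had none.

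The data are peak lists of RNA that was immunoprecipitated (IP) with RBM25, a splicing factor linked to the U1 small nuclear ribonucleoprotein, from H9C2 cells, a myoblast line from embryonic rat heart. The series holds 2 RBM25 IP samples and 2 input samples, all labelled H9C2 and all irradiated with ultraviolet light at 400 mJ per square cm before lysis; the inputs were not used here. The design text names cells with excess RBM25 for the RNA-seq of the study, and the labels of these 4 samples do not say whether these cells carried it. The labels do not give the source culture of each replicate, and each list was tied to its sample by its name.

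MCM2 to MCM7 form the ring-shaped core of the replicative helicase. The ring is loaded on DNA at origins in G1 phase and unwinds DNA in S phase once its activators join it. TOP2A, DNA topoisomerase II alpha, passes duplexes through each other and untangles sister chromosomes before they part. BUB1B, also called BUBR1, is part of the mitotic checkpoint complex, which holds back the anaphase-promoting complex until chromosomes are attached to the spindle. All of these genes are made mainly in cycling cells. Their transcripts are spliced from many exons.

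Tags, the authors' signal for a peak, are read numbers per bin of 50 nt and are not scaled for depth, which is unknown. A peak of 1 bin is listed as 51 nt long. Listed peaks started at 19 tags in replicate 1 and at 20 in replicate 2, with list medians of 24 and 26. The peaks of the 8 genes ran from 19 to 27 tags in replicate 1, with a median of 23, and from 20 to 45 in replicate 2, with a median of 24. Of the 33 peaks, 11 stood above the median of their own list, 2 in replicate 1 and 9 in replicate 2, beside 46.3% and 49.2% of all peaks of the lists. Many lay close to the lowest listed level, and a position that is called in 1 list can lie just under the lowest called level in the other. No peak was set against the RNA level of its gene, which was not measured in these files. Of the marker genes listed for the cells, 3 of 15 muscle genes had a peak (Cald1, Tnnt2 and Tpm1), 6 of 9 fibroblast and smooth muscle genes did, and 0 of 8 endothelial and immune genes did, beside 7.61% of all protein-coding symbols of the name table; Des, Myod1 and Myog had none. At that share, 0 of 8 says little about those cell types. The marker genes were added after their values were seen, and the muscle count rests on the 3 genes named, so none of these counts is read as a measure of cell type.

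**Figure D1:**
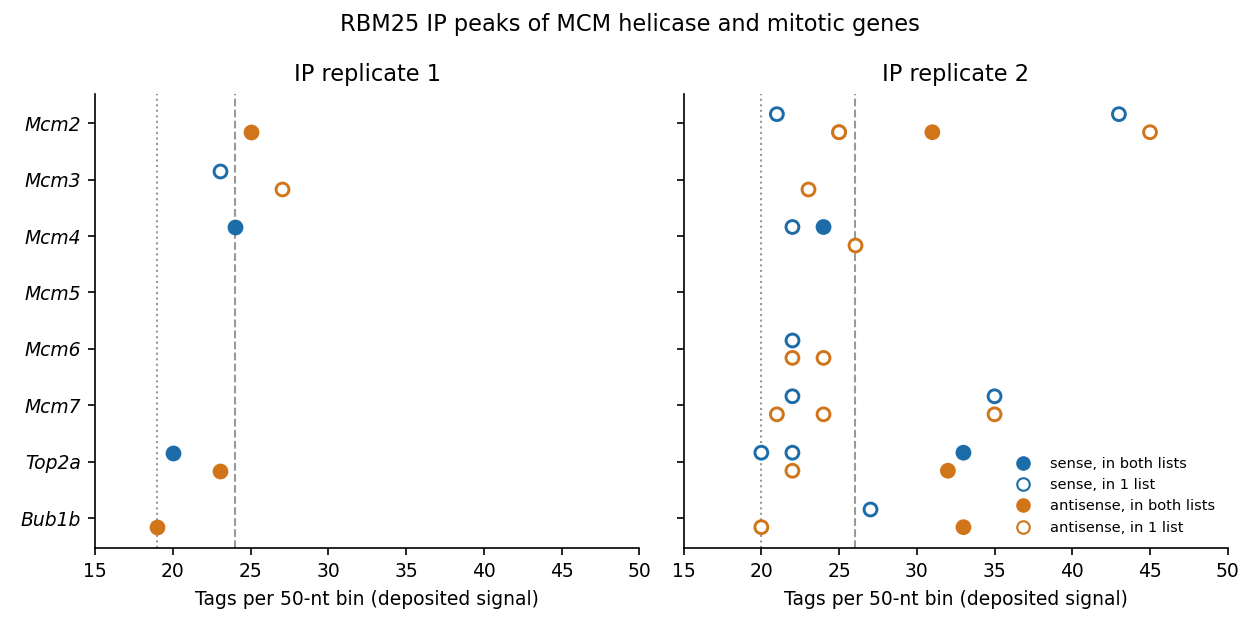
Tags per 50-nt bin of each peak of the 8 genes in IP replicate 1 (left) and IP replicate 2 (right); sense peaks are blue and antisense peaks orange, filled where a peak of the other list overlaps on the same strand. The dotted line is the lowest listed peak of each list and the dashed line its median (24 and 26 tags); Mcm5 has no point, and Mcm2 reaches 45 tags in replicate 2.

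Mcm2 had the tallest peaks of the group. All of its peaks lay on chromosome 4 between 121355650 and 121359650 (mRatBN7.2), and the gene is read from the minus strand. In replicate 2, the bin at 121355850 to 121355900 held 43 sense tags and 45 antisense tags, with a fraction of 0.56 of the sense peak in coding sequence and 0.44 in intron. The antisense peak there had the lowest deposited p-value of the 8 genes, 1.6e-10 by the authors' caller. Replicate 1 had 1 Mcm2 peak, antisense at 121355650 to 121355700 with 25 tags. That position recurred in replicate 2 with 31 antisense tags, and there a sense peak of 21 tags also covered it, in a peak of 101 nt that was mostly coding (0.9). Replicate 2 held further antisense peaks of 25 tags at 121355950 and at 121359600, with no sense peak in those bins. Of the 6 Mcm2 peaks of replicate 2, 5 lay within 300 nt of the replicate 1 peak, counted between starts.

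Mcm3 was the member whose peaks did not meet between the lists. The gene lies on chromosome 9 and is read from the minus strand. Replicate 1 had a bin called on both strands at 23222650 to 23222700, with 23 sense and 27 antisense tags, and a fraction of 0.08 of the sense peak was coding. Replicate 2 had 1 Mcm3 peak, antisense with 23 tags, at 23221800 to 23221850. Its start was 850 nt from that of the replicate 1 bin, so the gene was called in both lists at different positions.

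Mcm4, on chromosome 11 and read from the plus strand, had 3 sense peaks and 1 antisense peak over both lists. Its peak at 85259750 to 85259800 had 24 sense tags in replicate 1 and 24 in replicate 2, with a fraction of 0.84 in coding sequence and 0.16 in intron. Replicate 2 also had an antisense peak of 26 tags in that bin, and a sense peak of 22 tags at 85259500 to 85259550, a bin with a fraction of 0.96 in coding sequence. All 4 Mcm4 peaks of the lists lay within 300 nt.

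Mcm6 and Mcm7 had peaks in replicate 2 alone. Mcm6, on chromosome 13 and read from the minus strand, had 22 sense and 24 antisense tags in the bin at 39829400 to 39829450, which held mostly intron (0.86). A further antisense peak of 22 tags lay at 39841250 to 39841300, so the Mcm6 peaks spanned 11900 nt, the widest span of the group. Mcm7, on chromosome 12 and read from the minus strand, had 35 tags on each strand at 17045950 to 17046000, across coding sequence (0.42) and intron (0.58). The tags of this bin were equal between strands. In the bin at 17045750 to 17045800 it had 22 sense and 24 antisense tags, and this sense peak lay wholly in coding sequence. An antisense peak of 21 tags stood alone at 17047200 to 17047250. In the RefSeq name table (assembly GRCr8) the microRNA genes Mir25, Mir93 and Mir106b overlap Mcm7, and none of them was named as the gene of a peak. The same holds for the pseudogene Cct7-ps4, which overlaps Mcm3, and the transfer RNA gene Trnas-aga41, which overlaps Mcm6. Replicate 1 had no peak in Mcm6 or Mcm7. Mcm5, which encodes the remaining subunit of the helicase ring, had none in either list, which says only that no bin of it was listed.

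Top2a, on chromosome 10 and read from the minus strand, was the only member with a recurring peak on each strand. At 83953750 to 83953800 replicate 1 showed 20 sense and 23 antisense tags and replicate 2 showed 33 sense and 32 antisense tags, so the strands stood close to each other in each list. The sense peak had a fraction of 0.94 in coding sequence and 0.06 in intron. Replicate 2 had 22 tags on each strand at 83951550 to 83951600, where a fraction of 0.36 was coding, and a sense peak of 20 tags at 83953500 to 83953550, where 0.12 was coding. This last peak stood at the lowest level of its list and had no antisense partner.

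Bub1b, on chromosome 3 and read from the plus strand, had 1 peak in replicate 1, antisense with 19 tags at 105588400 to 105588450. This was the weakest listed level of replicate 1, with a deposited p-value of 1.7e-05. In replicate 2 the same bin had 27 sense and 33 antisense tags, and a fraction of 0.56 of the sense peak was coding. A separate antisense peak of 20 tags lay at 105584950 to 105585000.

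**Figure D2:**
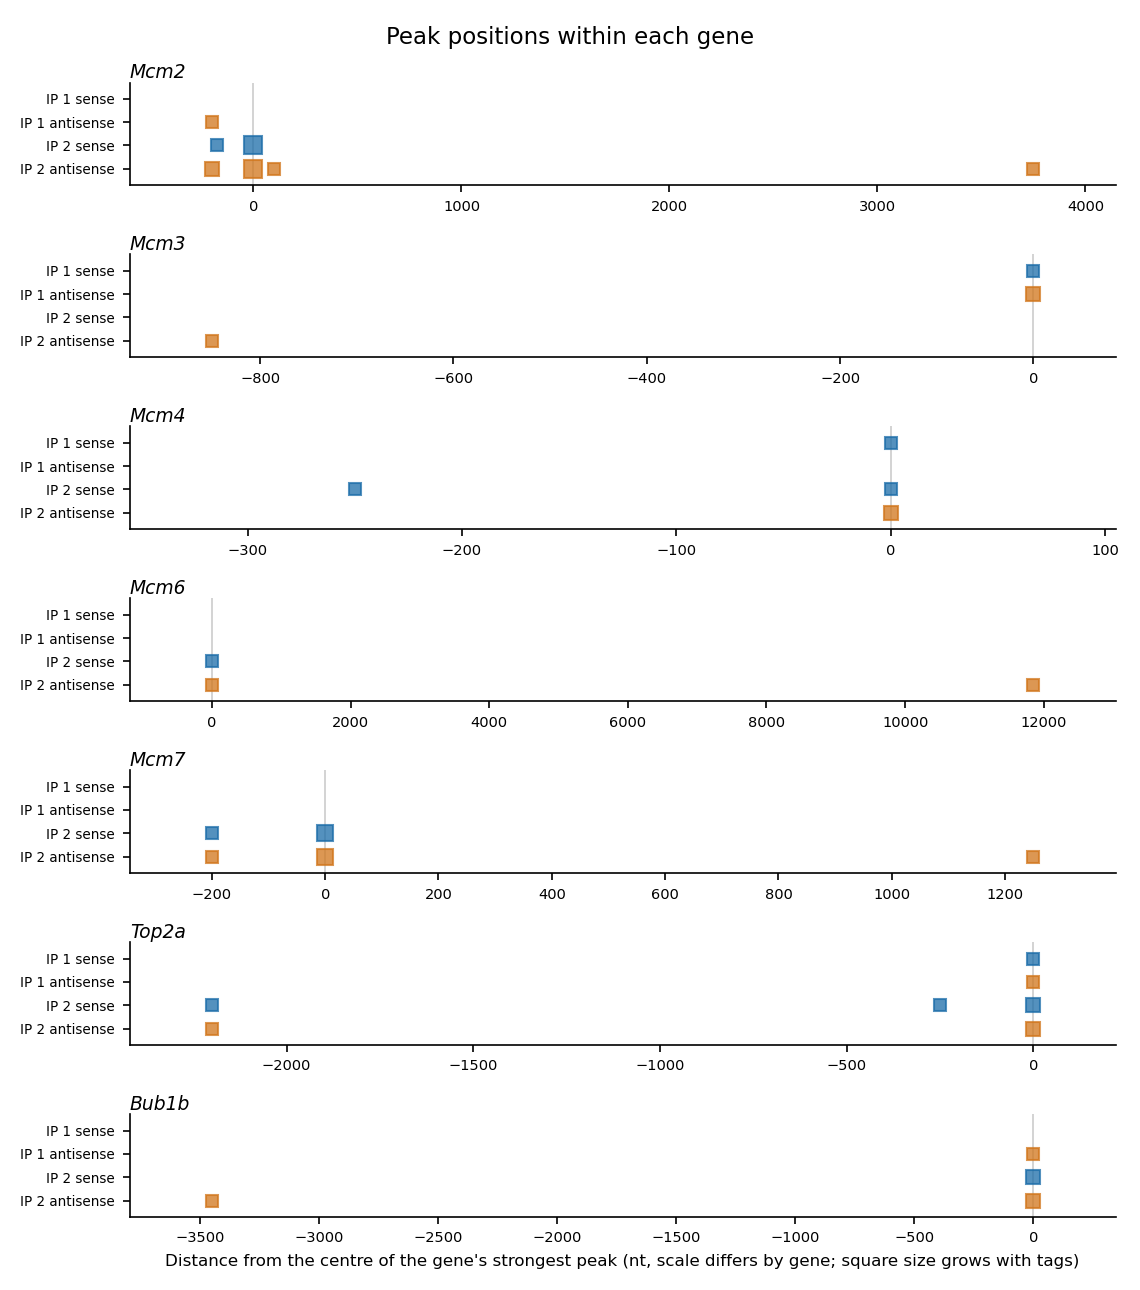
Positions of all peaks of the 7 genes with a peak, as the distance in nt from the centre of the gene's strongest peak, along the plus strand of the genome, with rows for sense and antisense peaks of each IP replicate; square size grows with tags and the scale differs by gene. Over both lists, 11 sense peaks overlap an antisense peak of the same list, with the recurring Top2a position counted in each list. Mcm2, Top2a, Mcm4 and Bub1b show a position that both replicates hold.

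Sense and antisense peaks were then set against each other. Over both lists the 8 genes had 14 sense and 19 antisense peaks. Antisense peaks made up 4 of 7 in replicate 1 (57.1%, 95% Wilson interval 25.0 to 84.2) and 15 of 26 in replicate 2 (57.7%, 38.9 to 74.5), beside 51.6% and 49.3% of all peaks of these lists. The intervals cover counting error only and treat peaks of a gene as separate, which they are not. Both shares include the value over all peaks within their intervals.

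Once both lists were read together, 0 of 7 members were antisense-only (95% Wilson interval 0.0% to 35.4%), beside 16.2% of all genes with a peak, a value within that interval. In a list taken alone some were. In replicate 1, 2 of 5 members with a peak had no sense peak, Mcm2 and Bub1b, beside 28.7% of all genes in that list. In replicate 2, 1 of 7 members had no sense peak, Mcm3, beside 15.9% of all genes. Mcm2 and Bub1b each had a sense peak in replicate 2, and Mcm3 had one in replicate 1. Among all genes with no sense peak in replicate 1 and a peak in replicate 2, 80.6% had a sense peak in replicate 2; the converse share, for genes with no sense peak in replicate 2, was 40.0%. Thus 3 of the 5 members called in both lists had a sense peak in only 1 of them, whereas Mcm4 and Top2a had a sense peak in each.

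At the level of bins, the recurring bins of Mcm2 and Bub1b were called on the antisense strand alone in replicate 1 and on both strands in replicate 2. The Mcm3 bins did not recur, and Mcm2 had a further sense peak of 43 tags in replicate 2, in a bin not called in replicate 1. Over all recurring antisense peaks of replicate 1 that were called on 1 strand, 63.5% had a replicate 2 peak called on both strands. The Mcm4 bin was called on the sense strand alone in replicate 1 and on both strands in replicate 2, beside 65.6% of all such sense peaks. With the Top2a bin, which had both strands in each list, all 4 recurring positions of the group had both strands in replicate 2.

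Most sense peaks had an antisense peak in their bin. This held for 2 of 3 sense peaks in replicate 1, beside 50.5% of all sense peaks, and for 9 of 11 in replicate 2, beside 73.5%. The exceptions were the Mcm4 peak of replicate 1 and, in replicate 2, the Mcm4 peak at 85259500 and the Top2a peak at 83953500. Sense peaks thus stood alone in 3 of 14 cases over both lists and antisense peaks in 8 of 19, and these 8 lay between 19 and 25 tags. The share of all antisense peaks that stood alone was not computed, so this contrast is not read as particular to these genes. Over both lists, 11 bins were called on both strands, with the recurring Top2a bin counted in each list. The antisense strand had more tags in 8 and the strands were equal in 2 (Mcm7 and Top2a). The sense strand had more in 1, a Top2a bin with 33 sense and 32 antisense tags. Among pairs in which both peaks had 51 nt, antisense tags were higher in 2 of 2 in replicate 1 and 5 of 8 in replicate 2, beside 53.7% and 56.5% of all such pairs. The largest gap was at Mcm2, where the sense peak of 101 nt averaged 21 tags per bin and the antisense peak of 51 nt had 31. Over the pairs of 51 nt, the antisense strand took a median of 53.7% of the tags in 2 pairs of replicate 1 and 51.6% in 8 pairs of replicate 2, beside 51.1% and 51.0% over all such pairs of the lists. Since a bin enters only when both strands reach the lowest called level, shares far from equal are kept out for weak bins.

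**Figure D3:**
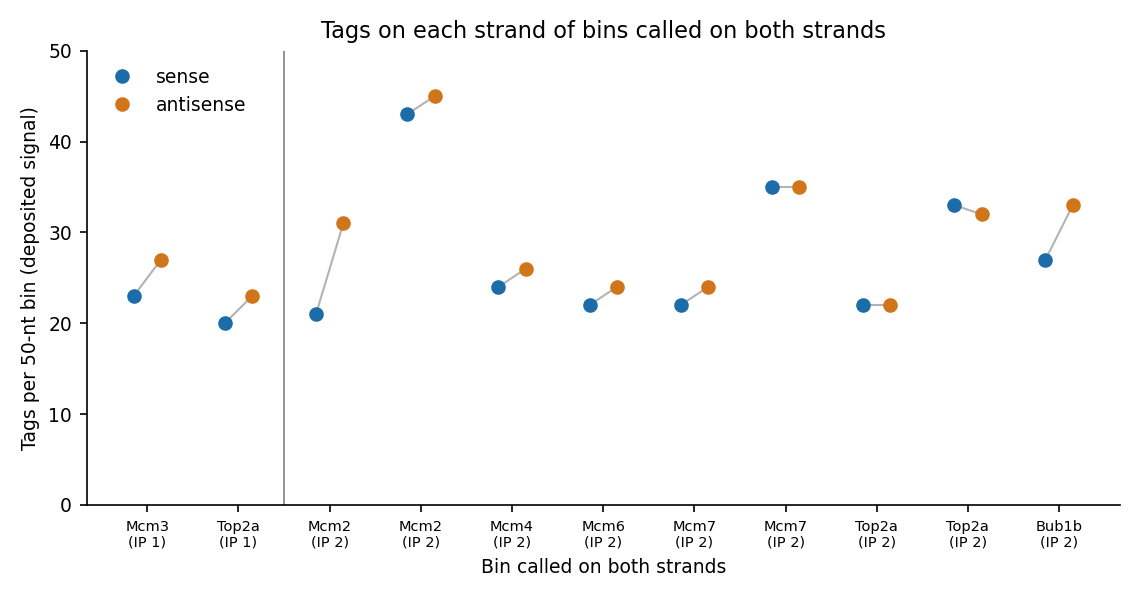
Tags per 50-nt bin on the sense strand (blue, left) and the antisense strand (orange, right) of the 11 bins of the group that were called on both strands, 2 in IP replicate 1 and 9 in IP replicate 2. The strands lie close together in most bins, from 20 sense and 23 antisense tags at Top2a in replicate 1 to 43 sense and 45 antisense tags at Mcm2 in replicate 2.

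The sense peaks crossed from coding sequence into intron in 13 of 14 cases. In replicate 1 all 3 did, beside 63.9% of all sense peaks, and in replicate 2, 10 of 11 did (90.9%, 95% Wilson interval 62.3 to 98.4), beside 68.1%. The exception was the coding Mcm7 peak of 22 tags. None of the sense peaks touched an untranslated region or a noncoding exon, and none lay wholly in an intron. The share of coding sequence was uneven: 9 of the 14 held more coding than intron sequence and 5 held more intron. Neither these counts nor the absence of untranslated and wholly intronic peaks was set beside all sense peaks. They are therefore not read as particular to these genes. In the 12 boundary peaks of 51 nt, between 4 and 48 nt of the bin were coding, with a median of 28. The Mcm3 bin, with 4 coding nt, and the Mcm4 bin at 85259500, with 48, stood at the ends of this range. The recurring Mcm4 and Top2a sense peaks were counted once per list, here and among the 14 sense peaks. Bins follow a fixed grid of 50 nt, so the place of the exon edge within a bin does not show where RBM25 sat. Whether the edge is a 5′ or a 3′ splice site was not tested. For antisense peaks the annotation gives no exon or intron, but 11 of the 19 shared the bin of a sense peak.

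**Figure D4:**
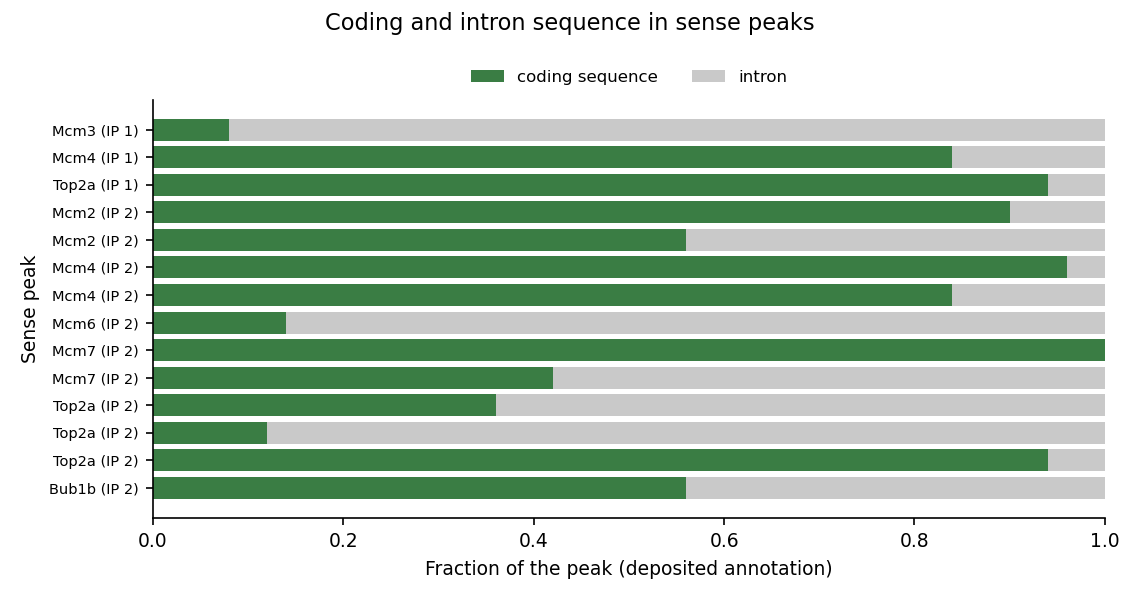
Fraction of each of the 14 sense peaks in coding sequence (green) and intron (grey), by the deposited annotation, for IP replicate 1 (top 3 bars) and IP replicate 2. The bars run from 0.08 coding at Mcm3 to wholly coding at an Mcm7 peak, and 13 of 14 hold both classes.

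Recurrence was read as overlap on the same strand. Of the 7 replicate 1 peaks, 5 recurred, beside 61.0% of all replicate 1 peaks, and these made up 5 of the 26 replicate 2 peaks, beside 20.3%. By strand, 2 of the 5 were sense (Mcm4 and Top2a) and 3 antisense (Mcm2, Top2a and Bub1b). The peaks that did not recur were the sense and antisense peaks of the Mcm3 bin. Tags were higher in replicate 2 at 4 of the 5 and equal at Mcm4. The same count over all recurring peaks was not made. Tags are not scaled and the list medians are 24 and 26, so this direction is not read as one of these genes. At the level of genes, 5 of the 7 members with a peak had one in each list, beside 43.2% of all genes with a peak in either list. A recurring peak was held by 4 of the 7, beside 34.1% of all genes with a peak in either list. In replicate 2, 5 of 18 member peaks called on both strands recurred in replicate 1, beside 22.9% of all genic peaks of that kind. None of the 8 member peaks called on 1 strand did, beside 14.3%. These shares rest on few peaks and were selected on the same calls, so nothing is read from their distance to the values over all peaks. When only peaks with a deposited p-value at or below the list median were kept, 13 member peaks were left and 1 recurred, the antisense Mcm2 peak.

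By number of peaks, Mcm2 stood out within the group in replicate 2, with 6 peaks, a count reached by 22.5% of genes in that list. Mcm7 and Top2a had 5 each, a count reached by 28.5%. Mcm4, Mcm6 and Bub1b had 3, which is the median of the list, and Mcm3 had 1. In replicate 1, Mcm3 and Top2a had 2 peaks each, the median there, and Mcm2, Mcm4 and Bub1b had 1.

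Other genes of replication and mitosis were looked up in 4 lists of 95 genes in all. These lists were written with results on some cell cycle genes known. A peak was present in 17 of the 95 genes, 9 in replicate 1 and 16 in replicate 2. Beside this, 7.61% of the 23148 protein-coding symbols of the name table had a peak, with no regard to which of them were expressed. Of the 17 genes, 7 held a recurring peak, where 34.1% of all 1914 peak-holding genes of the series did. Among the genes that load and fire origins alongside the MCM ring, 1 of 24 had a peak (4.17%), a share near that over all protein-coding symbols. This was Timeless, a fork protection gene, with 4 peaks in replicate 2, the strongest bin having 29 sense and 33 antisense tags. The relatives Mcm8, Mcm9 and Mcm10 and the MCM-binding protein gene Mcmbp had none.

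Of 26 genes of the replication fork and nucleotide supply, 3 had a peak and 1 recurred. Chaf1a, the large subunit of the histone chaperone that follows the fork, recurred on both strands at chromosome 9, 877500 to 877550, with 22 sense and 22 antisense tags in replicate 1 and 26 sense and 29 antisense tags in replicate 2. Its tallest bin, at 892100, had 36 sense and 48 antisense tags in replicate 2 and an antisense peak of 26 tags in replicate 1. Lig1, the ligase that joins Okazaki fragments, reached 24 tags, and Tk1, thymidine kinase, had 1 antisense peak of 20 tags, both in replicate 2 alone.

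The list of topoisomerase, condensin and cohesin genes held 19 genes, including Mki67, which belongs to none of these classes. Of these 19, 7 had a peak and 3 recurred, all in cohesin or its regulator. Smc1a recurred on both strands at chromosome X, 21114300 to 21114350, with 36 sense and 33 antisense tags in replicate 1 and 34 sense and 26 antisense tags in replicate 2. Smc3 recurred on the antisense strand alone, with 21 tags in replicate 1 and 28 in replicate 2, and a sense peak of 27 tags joined that bin in replicate 2, the arrangement described for Mcm2 and Bub1b. Pds5a, a cohesin regulator, recurred in the sense direction alone, in a bin of 5′ untranslated and intron sequence, with 20 tags in replicate 1 and 23 in replicate 2. Rad21, the cohesin subunit that closes the ring, had 8 peaks in replicate 2, up to 37 tags on each strand of 1 bin, and none in replicate 1. Mki67, the gene of the proliferation antigen Ki-67, reached 25 tags and Top2b, the second type II topoisomerase, had 1 sense peak of 25 tags, both in replicate 2 alone.

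Of 26 genes of the spindle checkpoint and mitosis, 6 had a peak and 3 recurred. Incenp, the scaffold of the chromosomal passenger complex, recurred on both strands at chromosome 1, 206529100 to 206529150, with 41 sense and 37 antisense tags in replicate 1 and 55 sense and 63 antisense tags in replicate 2, above every peak of the 8 genes in replicate 2. Zwint, a kinetochore gene, recurred in the sense direction with 30 tags in replicate 1 and 49 in replicate 2. In each list that bin was also called on the other strand, by a peak not assigned to Zwint. At another bin Zwint recurred in the antisense direction with 20 and 29 tags. Mad1l1, which brings MAD2 to kinetochores, recurred on the antisense strand alone, at 2 positions, with 25 and 20 tags in replicate 1 and 28 and 26 in replicate 2. Each of these bins also had a sense peak in replicate 2. Cenpf, another kinetochore gene, had peaks in both lists with no overlap, Cenpe had 1 antisense peak of 21 tags in replicate 2, and Tpx2, a spindle assembly gene, had 1 antisense peak of 22 tags in replicate 1. The checkpoint partners Bub1, Bub3, Mad2l1 and Ttk had no peak.

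**Figure D5:**
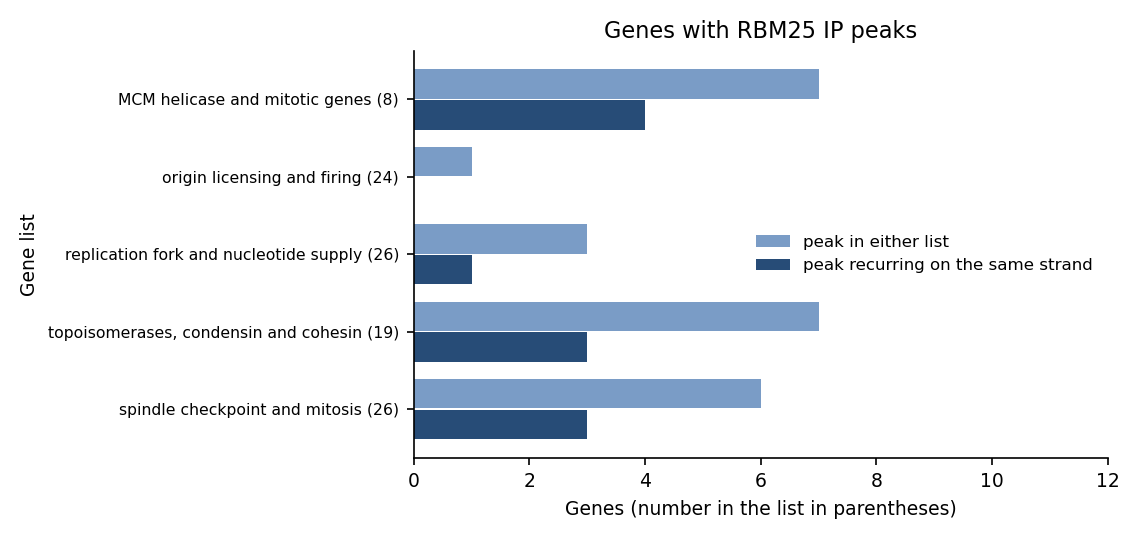
Number of genes with at least 1 peak in the lists (light) and with a peak recurring on the same strand (dark), for the 8 genes described here and 4 lists of replication and mitosis genes; list sizes are in parentheses. The 8 genes were chosen with their peaks known, so their bar of 7 is set by that choice; in the other lists the bars run from 1 of 24 to 7 of 19.

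Genes with a like pattern were sought by the distance between 4 values, log2(1 + summed tags) of sense and antisense peaks in each of the 2 lists. The gene nearest to Mcm2 was Ankrd17 (distance 0.281), with 0 sense and 28 antisense tags in replicate 1 and 70 sense and 110 antisense tags in replicate 2. For Mcm2 these sums were 0, 25, 64 and 126. The nearest to Mcm3 was Pmaip1 (0.225), to Mcm4 RGD1311703 (0.085) and to Bub1b Eif2s2 (0.141). Bub1b had summed tags of 0 sense and 19 antisense in replicate 1 and 27 sense and 53 antisense in replicate 2, and Eif2s2 had 0 and 20, then 28 and 49. With 4 values a gene the distance describes these lists alone.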

How the data were processed

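Libraries of RBM25 IP and input RNA from H9C2 cells were read as pairs of 150 nt, with strand kept, after DNase and micrococcal nuclease treatment, per the labels' protocols. Per the submitters' processing notes, HISAT2 and the build mRatBN7.2 were used; which caller made the peaks, with which filters and whether against the inputs, is not given in the sources used here. Each deposited list gives per peak a tags signal, a p-value and a length, per the file headers and values. Tags are whole in peaks of 51 nt and were not scaled, so no change between replicates was tested.

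Sense, antisense, coding and intron calls follow the deposited annotation. Peaks recur when they share at least 1 bin on the same strand. Starts lie on a 50-nt grid. No test was run: the members and gene lists were chosen with earlier results of these data known, and each list is 1 library. Named genes are the 8 members, all listed genes with a recurring peak, up to 3 further genes with the most tags per list, and the most alike gene of each member called in both lists, of which 1 is not reported here. Genes named for having no peak, marker genes and genes that overlap a member were added after their values were seen. Symbols come from RefSeq GRCr8, used for names and neighbours alone; all 8 members matched. Overlap and strand calls were tested on 2000 simulated peaks, and class calls on a separate, smaller set of made-up annotations. Of these checks, 8 of 8 returned the planted number. Alternatives covered the threshold, peak length, overlap rule, strand, class definition and leaving out each replicate. Scripts ran in Python 3.11.15 with matplotlib 3.10.9, scipy 1.17.1, pandas 2.3.3 and numpy 2.4.6.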

Additional observations from a re-analysis of the deposited data

How the results depend on the processing

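Of 38 values recomputed under alternatives, 28 stayed close to those reported and 10 moved. Close means within 1.5 times for a count and within the 95% interval for a share. Some of the 28 could not have moved, so the tally does not measure how firm the values are. No antisense peak carried another class, and no sense member peak touched an untranslated region or a noncoding exon, so those class definitions changed nothing. Keeping peaks with a deposited p-value at or below the list median left 13 of 33 member peaks, 1 recurring peak, 1 member with a recurring peak (Mcm2) and 1 member without a sense peak (Mcm3), and put the sense peaks with coding and intron sequence at 100.0% (5 of 5); fewer peaks enter this setting. Leaving out a replicate gave 7 to 26 member peaks, 1 to 2 members without a sense peak, and boundary shares of 90.9% to 100.0%. Asking for a fraction of at least 0.1 of the peak in each class lowered the boundary share to 64.3%, since 4 peaks hold a thin strip of 1 class. The recurring Top2a bin is among these 4 once per list. The shares over all sense peaks, 63.9% and 68.1%, count any amount of each class. They were not recomputed at 0.1, so 64.3% cannot be set beside them. The 5 recurring peaks and the 4 members that hold them kept their numbers under each overlap rule tried, but these rules could change nothing there. The recurring peaks hold the same bin in both lists. The only other replicate 1 peaks, in Mcm3, start 850 nt from the Mcm3 peak of replicate 2. The 7 listed genes with a recurring peak also kept their number, under settings chosen after seeing the data. No paired analysis was possible because the values come from no test: each is a count or share over peak lists of the IP samples alone. Depth is unknown, so a position missing from a list may lie under its lowest called level.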
